A study of Mus musculus with 4 samples.

Results

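Cerebellar granule cells are the small glutamatergic neurons of the cerebellar cortex, and 8 genes of their lineage are described here: Fat2, Cnpy1, Crtam, Chn2, Mab21l1, Pax6, Rab37 and Barhl1. They are 8 of the 55414 genes counted, found by matching each Ensembl identifier to its symbol, and all 8 passed the filter on low counts that kept 21592 genes. The genes had been proposed with the difference between the genotypes in these same libraries already known, so that difference is given for them as a description, without a test.

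The data were 4 bulk messenger RNA libraries from mouse brain, 2 wild-type (WT) and 2 labelled Stra8-KO (KO), a knockout of Stra8, the retinoic acid responsive gene best known for starting meiosis in germ cells. By the series design, mice of both genotypes carried the pStra8-GFP reporter, with green fluorescent protein under control of the Stra8 promoter, and fluorescent cells were sorted from the hippocampus. The labels give no age, sex or number of animals and leave it unsaid whether 2 libraries of 1 genotype represent separate animals, so the errors and p-values given here measure the spread between these libraries only. Totals ran from 71097417 to 82172740 reads, and a member had between 116 and 6262 reads in a library.

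The labels were checked first. Stra8 had 5 and 1 reads in the WT libraries and 7 and 4 in the KO libraries, too few to check the genotype. Markers of hippocampal neurons were present in all 4 libraries, with dentate granule cell genes summing to 587 to 650 CPM (counts scaled to a library total of 1000000). Calb1, which Purkinje cells also make, had 113 to 130 CPM of that sum, so the sum does not measure an amount of dentate tissue. Cerebellar genes were present as well, among them Gabra6 at 10.96 to 24.25 CPM and the Purkinje cell gene Pcp2 at 7.23 to 19.4 CPM. A list of 13 Purkinje cell genes summed to 829 to 1001 CPM and a list of 24 granule neuron genes to 2330 to 2505 CPM. Slc17a7, which the forebrain also makes, had 1146 to 1184 CPM of the granule sum, so these sums do not compare amounts of tissue. Pituitary hormone genes and Y-linked genes, picked for this check after their values had been seen, were also lower in KO. The pituitary hormone genes Gh and Prl summed to 41.8 and 42.1 CPM in WT and to 20.2 and 19.3 CPM in KO, and 4 Y-linked genes to 69.8 and 71.0 CPM in WT and to 29.5 and 30.7 CPM in KO. Y-linked RNA comes from male cells and the labels give no sex, so sex and genotype cannot be told apart in these libraries. The part of pituitary and male RNA in the values below was not tested.

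Granule cells descend from precursors of the rhombic lip that express the transcription factor Atoh1. The precursors divide at the surface of the cerebellum under Sonic hedgehog from Purkinje cells, then leave the cell cycle, migrate inward and extend parallel fibres that synapse on Purkinje cell dendrites. Pax6 and Barhl1 act early in this lineage, while Fat2 belongs to the differentiated neuron and its fibres.

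Of the 8 genes, 6 were lower in KO in both libraries and 2 were not. Fat2, Cnpy1 and Crtam stood at 44.3% to 52.1% of their WT level, Mab21l1 at 74.7%, and Pax6 and Chn2 at 86.4% and 88.8%. Rab37 and Barhl1 had nearly the same mean in both genotypes. The fit over all genes (quasi-likelihood test of edgeR, called at a Benjamini-Hochberg adjusted p under 0.05) called those 6 lower and none higher, where 3.19% of all tested genes were called lower and 3.35% higher. The KO libraries lay below both WT libraries for the same 6, where 22.9% of all tested genes did so. Since the genes were chosen on this difference, nothing is read from either count. In bulk RNA a smaller number of cells of a type and less RNA per cell cannot be told apart.

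**Figure D1:**
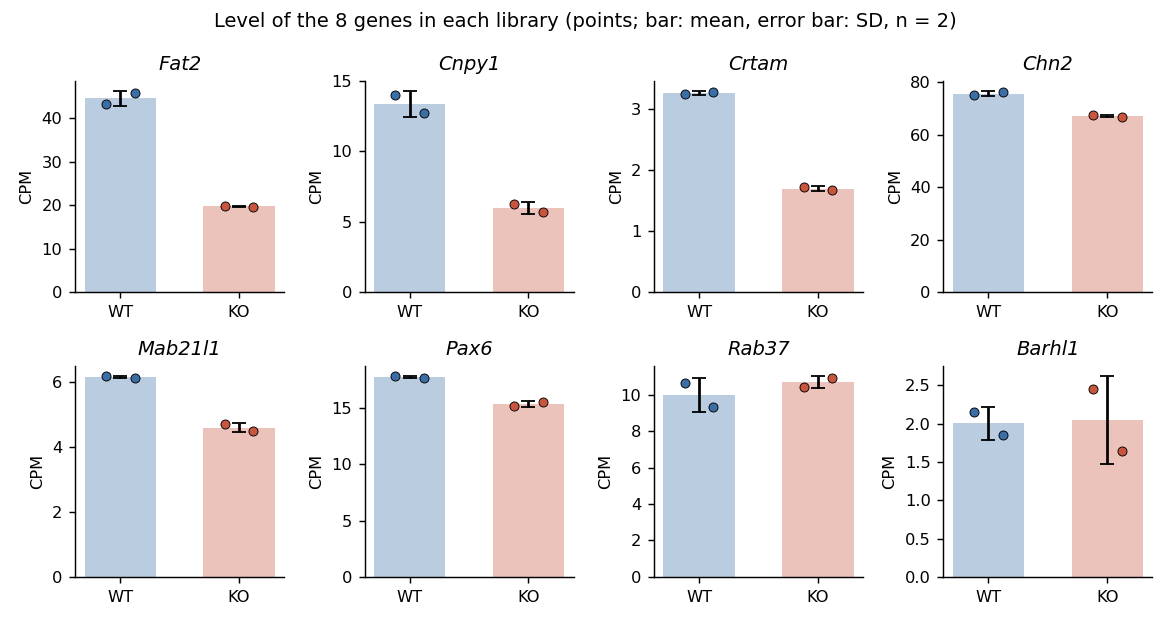
Level of each of the 8 genes in CPM (y axis, from 0), with 1 point per library, the mean as a bar and the SD as an error bar (n = 2 libraries per genotype, WT and KO on the x axis). Fat2, Cnpy1 and Crtam lie furthest below WT, and the KO points of Rab37 and Barhl1 lie among or beside the WT points.

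Fat2 (ENSMUSG00000055333) encodes a very large atypical cadherin of granule cell parallel fibres. The WT libraries held it at 43.3 and 45.7 CPM, and the KO libraries at 19.85 and 19.6 CPM. The lowest WT library was above the highest KO library by far more than the gap within either genotype. The log2 fold change of KO over WT was -1.17 (SE 0.046, n = 2 libraries per genotype). Its relatives were read in the same fit. Fat1, a broadly expressed member of the family, was lower by a small amount, from 109.7 and 108.6 CPM to 97.2 and 96.6 CPM (log2 fold change -0.17, SE 0.025 and edgeR adjusted p = 3.9e-05). Fat3, at 107 and 111 CPM in WT and 115 and 112 CPM in KO, was not called (edgeR adjusted p = 0.192), nor was Fat4, with a log2 fold change of -0.073 (SE 0.058 and edgeR adjusted p = 0.593). Whether Fat2 differed from each relative in its change was not tested.

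Cnpy1 (ENSMUSG00000044681) encodes a canopy protein of the endoplasmic reticulum, known from zebrafish as a positive regulator of fibroblast growth factor signalling at the midbrain-hindbrain boundary. Its level was 14.0 and 12.7 CPM in WT and 6.28 and 5.68 CPM in KO, so the genotypes did not overlap. Its log2 fold change was -1.16 (SE 0.085), close to that of Fat2. The other canopy genes, Cnpy2, Cnpy3 and Cnpy4, had log2 fold changes of -0.11, 0.024 and 0.028 and none was called, with edgeR adjusted p of 0.337 to 0.928. Among 9 tested genes of the midbrain-hindbrain boundary 2 were called lower and 0 higher. These were En2, the engrailed factor that granule cells keep into adulthood, at 8.74 and 9.71 CPM in WT and 4.51 and 4.88 CPM in KO (log2 fold change -0.98, SE 0.095 and edgeR adjusted p = 1.1e-07), and Pax2 (log2 fold change -1.03, SE 0.219 and edgeR adjusted p = 0.00332), a paired box gene that also marks cerebellar interneuron precursors. The median of these 9 was 0.020, beside -0.00038 over all tested genes. Its sign was not stable, since dropping KO library 1 gave -0.24, dropping WT library 1 or 2 gave -0.091 or -0.029, and dropping KO library 2 gave 0.041.

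Sequence before the Cnpy1 start is shown because it holds the E-box CAGATG, a form bound by basic helix-loop-helix factors of the Atoh1 and Neurod families. In the 250 bases upstream of the distal RefSeq start (GRCm38.p6, minus strand) the motif was found at 2 places, 141 and 48 bases before the start. Each stretch of 30 bases is given 5′ to 3′ with the match in capitals, read there as CATCTG, the other strand of the motif.
Cnpy1, chr5:28245912-28245941: agagtccatacaCATCTGtggttgcaggag
Cnpy1, chr5:28245819-28245848: ccctgaccacacCATCTGtctcgtttagca
Searched on both strands, CAGATG was in 14.4% of all 32851 windows of that length, so a match is common and is no evidence of binding.

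Crtam (ENSMUSG00000032021) encodes an immunoglobulin superfamily protein best known from activated T and NK cells, where it binds the adhesion molecule Cadm1. Its level was 3.24 and 3.28 CPM in WT and 1.72 and 1.67 CPM in KO, from 261 and 269 reads against 141 and 118. The WT pair nearly coincided, and so did the KO pair. The log2 fold change was -0.94 (SE 0.149). The exact 95% binomial interval of the share of reads was 2.87 to 3.67 CPM in WT library 1 and 1.44 to 2.02 CPM in KO library 1. Such intervals cover counting error only. They are too narrow here, since a fragment seems to have been counted by both of its reads. Crtam was also chosen on this difference, so nothing is read from comparing the intervals between genotypes.

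T and NK cell genes were read beside Crtam, since those cells also make it. Of 14 such genes 13 did not pass the filter and none of the 13 exceeded 0.149 CPM in a library. Those 13 genes together had 40 and 36 reads in WT and 20 and 6 in KO. Which cells made the Crtam RNA was not tested. Cd3g and Prf1 had 0 reads in all 4 libraries. Cd4, the T cell co-receptor and the 1 gene of the list that was tested, was higher in KO (log2 fold change 0.42, SE 0.092 and edgeR adjusted p = 0.00426). Without WT library 1 its adjusted p was 0.109. Cadm1, the Crtam partner, had 183 and 184 CPM in WT and 181 and 177 CPM in KO and was not called (edgeR adjusted p = 0.286).

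Mab21l1 (ENSMUSG00000056947) belongs to a family of proteins with a nucleotidyltransferase fold that act in the development of the eye and of the cerebellum. It had 6.17 and 6.12 CPM in WT and 4.69 and 4.49 CPM in KO, with no overlap. The log2 fold change was -0.42 (SE 0.101). Mab21l1 lies within Nbea, on the opposite strand, and whether the counting used strand is a detail not given in the sources used here. Nbea stood at 265 to 277 CPM and differed by -0.041 on the log2 scale (SE 0.018 and edgeR adjusted p = 0.223). The relative Mab21l2 was lower as well, from 3.32 and 4.22 CPM to 2.59 and 2.65 CPM (log2 fold change -0.53, SE 0.14 and edgeR adjusted p = 0.0206). This call ended with DESeq2 and when WT library 2 or KO library 1 was left out (adjusted p of 0.0651 to 0.331).

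Pax6 (ENSMUSG00000027168), the paired box and homeodomain factor of granule precursors, differed by a small amount. It had 17.8 and 17.7 CPM in WT and 15.2 and 15.5 CPM in KO, which do not overlap. The log2 fold change was -0.21 (SE 0.060). It was the only one of the 6 lower genes whose call ended under an alternative, with DESeq2 and with any 1 library left out, while the log2 fold change stayed between -0.23 and -0.19.

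Outside the cerebellum Pax6 is also known from olfactory bulb neurons and from neural stem cells, and genes of both were counted. Of 8 olfactory bulb genes 3 were called lower and 0 higher, with a median log2 fold change of -0.14 (-0.22 without WT library 1). The lower ones were Uncx (-0.72), Eomes (-0.52) and Cdhr1 (-0.27). Eomes, the T-box factor of mitral cells, is also the factor of cerebellar unipolar brush cells and of hippocampal intermediate progenitors. Of 12 stem and progenitor genes 2 were lower and 2 higher, with a median of 0.096 (0.037 without KO library 2). The stem cell genes Nes and Sox2 were higher, by 0.27 and 0.19 on the log2 scale (edgeR adjusted p = 0.00121 and 0.0037). The call of Sox2 ended without WT library 2 (edgeR adjusted p = 0.0802).

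Chn2 (ENSMUSG00000004633) encodes beta-chimaerin, a GTPase-activating protein for Rac that also acts in dentate granule cells during pruning of mossy fibres. It had 75.0 and 76.3 CPM in WT and 67.5 and 66.8 CPM in KO. The pairs were tight and did not overlap, and the log2 fold change was -0.17 (SE 0.029). Alpha-chimaerin, Chn1, was made at a level of 687 to 716 CPM and was not called (log2 fold change 0.040, SE 0.014 and edgeR adjusted p = 0.111). The Rac genes were not called, with log2 fold changes of 0.029 for Rac1 and 0.023 for Rac3. Other genes that overlap Chn2 or Pax6 did not exceed 0.663 CPM.

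Rab37 (ENSMUSG00000020732), a small GTPase of secretory vesicles, did not follow the 6. It had 10.64 and 9.34 CPM in WT and 10.44 and 10.93 CPM in KO, and the genotypes overlapped. Its log2 fold change was 0.097 (SE 0.080), and leaving out WT library 2 or WT library 1 gave 0.0058 or 0.19. Its closest relative Rab26, with 25.6 and 25.7 CPM in WT and 25.9 and 26.7 CPM in KO, was not called either (edgeR adjusted p = 0.793). Cd300lf overlaps Rab37 on the opposite strand, but it was at 0.122 to 0.409 CPM.

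Barhl1 (ENSMUSG00000026805), a homeodomain factor induced by Atoh1 in granule precursors, had the largest SE of the 8. It had 2.16 and 1.85 CPM in WT and 2.46 and 1.64 CPM in KO, so the KO libraries enclosed the WT libraries. The log2 fold change of 0.039 (SE 0.186) was smaller than its error, and it was -0.29 without KO library 1 and 0.29 without KO library 2. A difference in Barhl1 as small as its error was thus not detectable with these libraries. Its paralog Barhl2 was lower, with 4.31 and 4.91 CPM in WT and 2.71 and 2.27 CPM in KO (log2 fold change -0.88, SE 0.132 and edgeR adjusted p = 6.55e-05). Whether the paralogs differed from each other was not tested.

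The window before the distal Barhl1 start is shown as the counterpart to that of Cnpy1, because it holds the E-box CAGCTG, which reads the same on both strands. The 250 bases of GRCm38.p6, minus strand, end at the RefSeq start, and the match at 99 bases before it is in capitals.
Barhl1, chr2:28916669-28916918: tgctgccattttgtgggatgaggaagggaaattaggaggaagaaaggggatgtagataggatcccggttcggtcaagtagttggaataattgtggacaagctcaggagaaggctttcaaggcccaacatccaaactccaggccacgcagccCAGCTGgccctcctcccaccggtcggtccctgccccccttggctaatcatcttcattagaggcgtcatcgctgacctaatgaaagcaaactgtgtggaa
CAGCTG was in 13% of all windows, and the motif CNCCTCAG, reported at promoters bound by Stra8 in germ cells, in 6.42%. RefSeq windows were matched for 5 of the 8 genes, 11 windows in all, and Crtam, Mab21l1 and Rab37 had none. CAGCTG was in 4 of the 11, CAGATG in 2 and CNCCTCAG in 1, which belonged to Chn2. Both E-boxes are forms of CANNTG, which was in 9 of the 11 windows and in 66.2% of all. The Fat2 window lies inside the gene as GENCODE M21 draws it and is not shown.

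Levels can be compared between the genes only per length, here as CPM per kb of exon (RPKM) with exon lengths of GENCODE M21, an annotation other than that of the counts. In WT, Chn2 was highest at 13.0 ± 0.166 (mean ± SD, n = 2 libraries). Fat2 followed at 3.06 ± 0.116, then Mab21l1 at 2.47 ± 0.0149, Cnpy1 at 2.28 ± 0.157 and Rab37 at 1.87 ± 0.172. Pax6 at 1.52 ± 0.00883, Crtam at 0.635 ± 0.00613 and Barhl1 at 0.513 ± 0.055 were lowest. The WT libraries of neighbours in this order did not overlap, but Mab21l1 and Cnpy1 were separated by less than 2 SD of Cnpy1. In KO the level of Fat2, 1.36 ± 0.0112, was below those of Rab37 and Mab21l1 and next to that of Pax6 at 1.31 ± 0.0231.

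On the same scale the absolute difference orders the genes otherwise than the ratio does. WT exceeded KO by 1.71 RPKM for Fat2 (SE 0.082), by 1.47 for Chn2 (SE 0.14) and by 1.26 for Cnpy1 (SE 0.12). The estimate for Chn2 lay between those of Fat2 and Cnpy1, although Chn2 kept 88.8% of its WT level and Fat2 44.3%. Whether these differences differed from each other was not tested, and each SE rests on 2 libraries per genotype. For Mab21l1, Crtam and Pax6 the differences were 0.625, 0.305 and 0.205 RPKM.

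**Figure D2:**
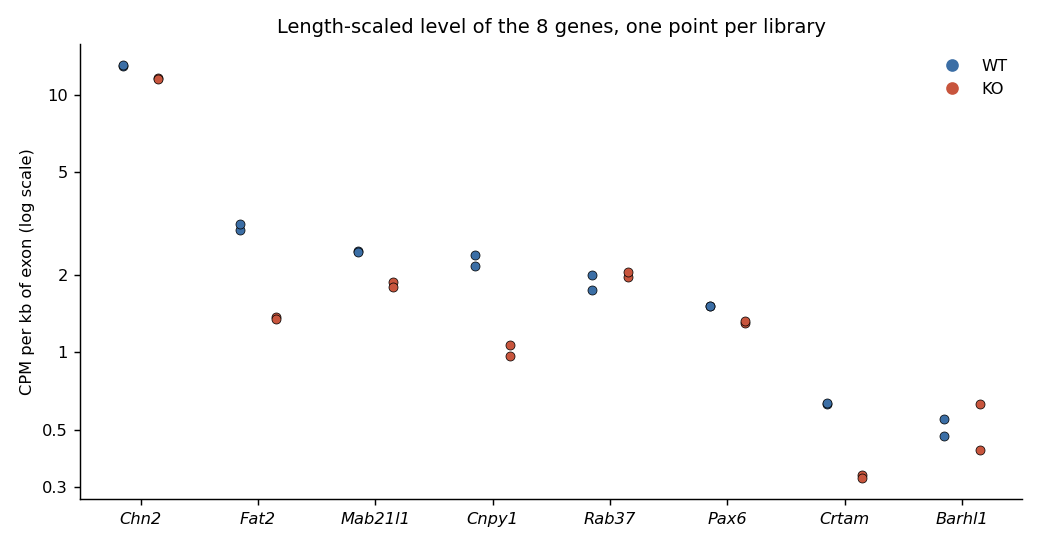
Level of the 8 genes in CPM per kb of exon (y axis, log scale), 1 point per library, WT and KO side by side and genes ordered by their WT mean. Chn2 lies near 13.0 in WT and 11.6 in KO, and in KO Fat2 lies below Mab21l1 and Rab37, both of which it exceeds in WT.

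Other genes of granule neurons, 24 in all, were read from a list written from general knowledge with earlier results of these data known. Of these, 14 were called lower in KO, 0 higher and 10 were not called, with a median log2 fold change of -0.21. At an unadjusted p under 0.05, 3 were higher with edgeR, DESeq2 and limma-trend alike, and no adjusted p of DESeq2 or limma-trend called 1 of them higher. Over all genes tested 3.19% were called lower and the median was -0.00038. Without Cbln3 and Gabra6, whose falls were known when the list was written, 12 of 22 were called lower and the median was -0.19. The list is not independent evidence of a direction.

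The lower genes of this list included factors, receptors and secreted proteins. Cbln3, a secreted partner of Cbln1 found in granule cells, stood at 42.6% of its WT level, and Gabra6, their GABA-A receptor subunit, at 45.3%. Il16, whose neuronal form is made in granule cells, stood at 51.5% with 24.4 and 23.7 CPM in WT and 12.7 and 12.04 CPM in KO (log2 fold change -0.96, SE 0.060 and edgeR adjusted p = 5.13e-11). Neurod1, the helix-loop-helix factor of differentiating granule cells, stood at 57.4% and Cbln1 at 65.7%. Zic1, a zinc finger factor of the lineage, stood at 74.9%. The vesicular glutamate transporter gene Slc17a7, which the forebrain also makes, was not called, at 1146 and 1168 CPM in WT and 1179 and 1184 CPM in KO (edgeR adjusted p = 0.199).

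**Figure D3:**
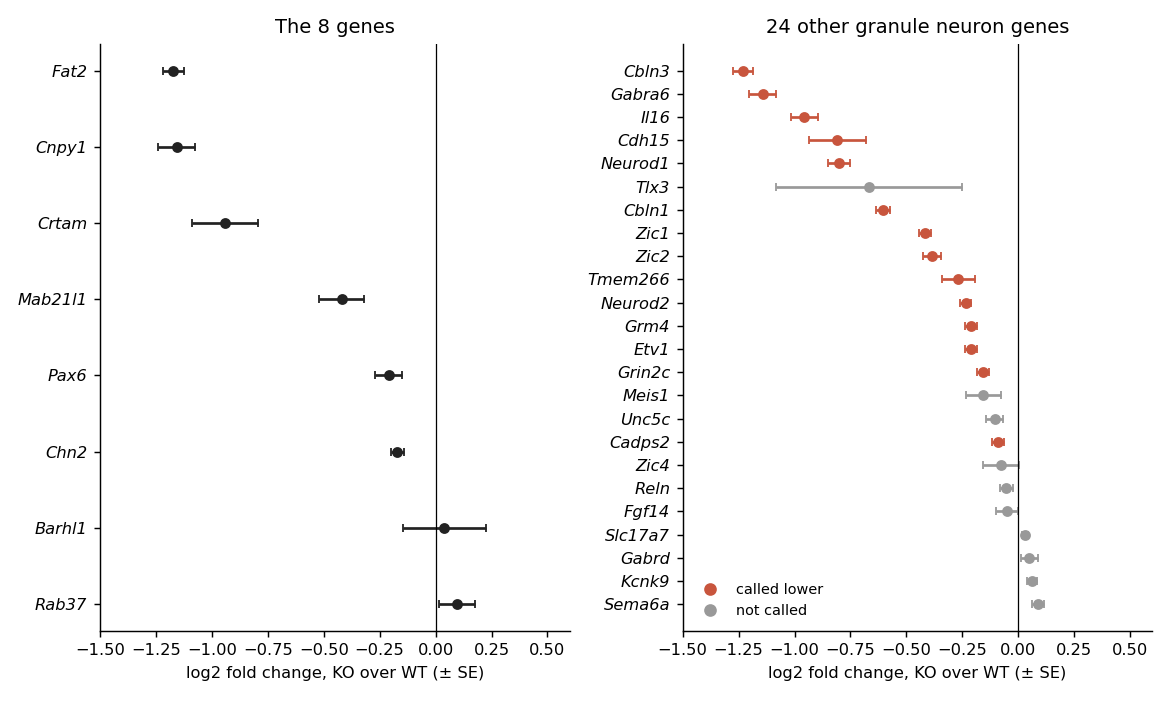
Log2 fold change of KO over WT (x axis, points with SE) for the 8 genes on the left and for 24 other granule neuron genes on the right, where colour marks the 14 called lower. Both panels run from about -1.2 to slightly above 0, with Fat2 at -1.17 beside Cbln3 at -1.23.

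Genes of the precursors were read next, where 3.19% of all tested genes were called lower and 3.35% higher. Of 14 tested genes of granule precursors and the Sonic hedgehog response, 1 was called lower, Barhl2, and 0 higher, with a median of -0.026. Without KO library 2, 2 were called lower, and the median ran from -0.018 to -0.0071 with any 1 library left out. Atoh1 had 0 reads in all 4 libraries, which allows up to 3 reads in each if reads are independent (0.037 to 0.042 CPM, counting error only). This bound is too low here, since a fragment seems to have been counted by both of its reads. The hedgehog response genes Gli1 (log2 fold change -0.34, SE 0.121 and edgeR adjusted p = 0.105) and Ptch1 (-0.050, SE 0.027 and edgeR adjusted p = 0.355) were not called, and neither was Mycn, the Myc family factor of dividing precursors (0.14, SE 0.076 and edgeR adjusted p = 0.359). Whether this list differed from that of mature neurons was not tested.

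Markers of other cells of the cerebellum were also lower in part. Of 13 Purkinje cell genes 9 were called lower and 0 higher, with a median of -0.47, led in size by Pcp2 at 39.0% of its WT level. Their summed level was 1001 and 995.5 CPM in WT and 828.7 and 835.1 CPM in KO. Most of that sum was Itpr1, at 613.4 and 616.3 CPM in WT and 538.5 and 547.9 CPM in KO. Purkinje cells also make Calb1 and Pcp4, which were counted on the hippocampal lists instead. Calb1 was called lower (-0.17, SE 0.024 and edgeR adjusted p = 3.44e-05). Pcp4 was called higher (0.27, SE 0.058 and edgeR adjusted p = 0.00447), so the count of 0 higher depends on the choice of list. Of 6 Bergmann glia genes 4 were lower and 0 higher, among them Gdf10 (log2 fold change -0.59, SE 0.065 and edgeR adjusted p = 8.72e-07). Of 9 genes of Golgi, molecular layer and unipolar brush cells 5 were lower and 0 higher, the lower ones including Slc6a5, the glycine transporter of Golgi cells and brainstem neurons (-1.10, SE 0.093 and edgeR adjusted p = 1.07e-08). Without WT library 2 and without KO library 1, 1 gene of this list was called higher. With all 4 libraries neither DESeq2 nor limma-trend called a gene of these 3 lists higher, nor of the precursor, midbrain-hindbrain and olfactory bulb lists. At an unadjusted p under 0.05, of these 6 lists, 1 interneuron gene was higher with edgeR and 1 with limma-trend, where 1 Bergmann glia gene was too. The part of a changed share of cerebellar cells in the values of the 8 genes was not tested.

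Some hippocampal genes were lower as well. Of 13 dentate granule cell genes 8 were called lower and 1 higher, with a median of -0.17, and Tdo2, at 2.27 and 2.07 CPM in WT and 0.977 and 0.960 CPM in KO, stood at 44.7%. Of 12 pyramidal cell genes of CA1 to CA3 6 were lower and 2 higher, with a median of -0.11. The 6 lower became 2 with DESeq2 and without KO library 2, 3 without WT library 1 and 1 without WT library 2. The 2 higher became 1 without KO library 1. Some lists share genes, so the same call can count in several of them. Barhl2 is a precursor gene and a paralog, and Pax2 is on the paralog, midbrain-hindbrain and interneuron lists. Eomes is on the olfactory bulb, stem cell and interneuron lists, and Hopx on the Bergmann glia and stem cell lists. The paralogs and partners of the 8 genes, 22 tested, had 4 lower, 1 higher and a median of 0.021. The higher calls were 2 without WT library 1 and without KO library 2, and 3 with counts halved. With 1 library left out the median ran from -0.0093 to 0.019, negative only without KO library 2. The 1 higher with all libraries was Cadm4, an adhesion relative of Cadm1 (0.11, SE 0.018 and edgeR adjusted p = 8.78e-05).

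**Figure D4:**
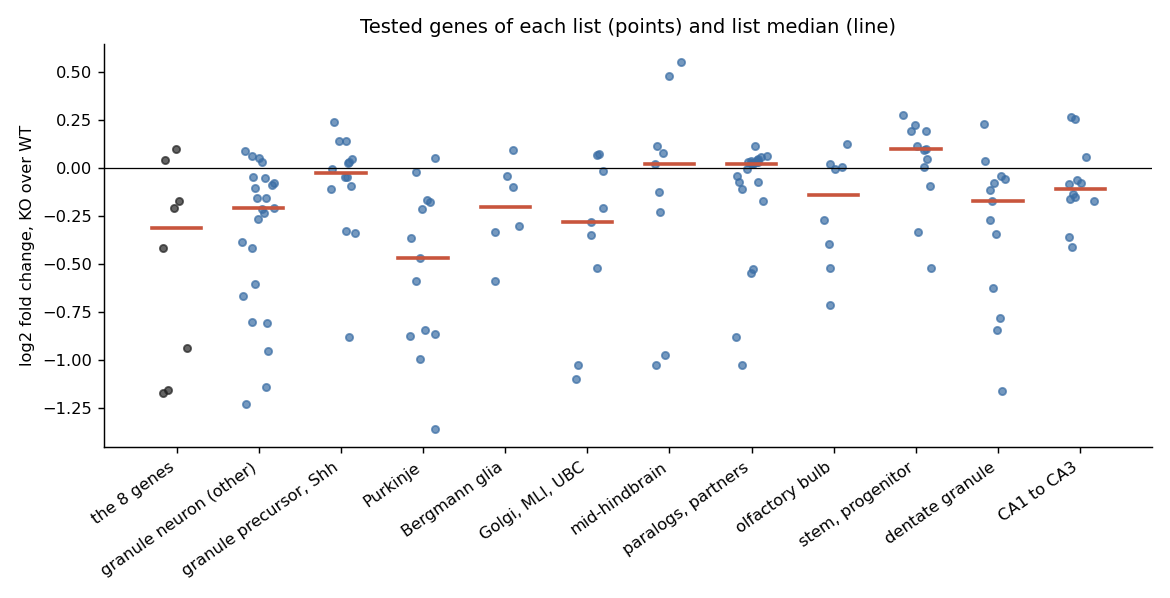
Log2 fold change of KO over WT (y axis) for every tested gene of each list (points) with the list median (line). The 8 genes have a median of -0.32, the Purkinje list -0.47 and the other granule neuron list -0.21. The 8 were chosen on this difference, so nothing is read from their place among the lists.

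Genes next to the 8 on the chromosome were read in the same fit. Of the 16 flanking genes by gene order 10 were tested and 0 were called (edgeR quasi-likelihood, adjusted p of 0.223 or more), nor was any with DESeq2 or limma-trend. At an unadjusted p under 0.05, 2 were lower and 2 higher with edgeR, as with limma-trend, and 0 with DESeq2. The neighbours of Fat2 were Slc36a1, at 87.1 and 87.5 CPM in WT and 90.4 and 91.3 CPM in KO, and Sparc, at 487 and 486 CPM in WT and 497 and 497 CPM in KO. Rbm33 beside Cnpy1 had a log2 fold change of -0.035 (SE 0.024), and Ubash3b beside Crtam one of -0.047 (SE 0.038). The other 6 flanking genes did not exceed 0.146 CPM.

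The genes whose pattern over the 4 libraries was nearest to the median of the 8 were then listed, by Euclidean distance between mean-centred log2 CPM values, among 11444 named genes with a mean of at least 5 CPM. The nearest 10 were Nr3c2, Wdfy1, Slc2a1, Fibcd1, Slc44a5, Chd7, Shq1, Arhgef37, Mt2 and Fkbp5, at distances of 0.058 to 0.075. Their log2 fold changes lay between -0.41 and -0.32. Fibcd1 is also on the pyramidal cell list. The median profile lies between the large and small changes of the 8, and the log2 fold changes of these 10 were smaller in size than those of Fat2, Cnpy1 and Crtam. Among genes with a mean of at least 5 CPM 19 had a log2 fold change of -0.9 or lower, Fat2 and Cnpy1 among them. Over all tested genes 358 did, and Fat2, Cnpy1 and Crtam ranked 140, 151 and 320 from the most negative. Since the 8 were chosen on this difference, nothing is read from these ranks.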

How the data were processed

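The authors deposited 1 table of raw read counts per gene for all 4 libraries. Per the labels' protocols, oligo dT captured RNA was made into strand-specific libraries and read in pairs. The submitters' processing notes name GRCm39, STAR 2.6.1c, featureCounts, FastQC and DESeq2, with no roles recorded. Not given in the sources used here were the annotation release and the strand setting. Of counts between 1 and 20, 72.8% to 74.3% were even, so a fragment seems to add a read for each mate. Columns were matched to samples by name, after a suffix carried by the KO columns alone was set aside. Nothing is read from that suffix. Symbols were matched for 52081 of 55414 identifiers.

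Counts were fitted in R 4.3.3 with edgeR 4.0.16 (filterByExpr at a minimum count of 10, TMM factors of 0.9966 to 1.005, glmQLFit and glmQLFTest by genotype), with p-values adjusted over 21592 genes by Benjamini-Hochberg. The SE is the log2 fold change over the square root of F. CPM use the scaled library size. In data simulated for KO over WT (21598 genes tested), 24 of 50 genes changed 1.2-fold and 38 of 50 changed 1.5-fold were called, each in the right direction, and 42 of 50 and 47 of 50 at 2-fold and 2.5-fold. Of all simulated calls 13.2% were unchanged genes, above the nominal 5%, so a call near the threshold is less certain than its adjusted p states. Members and lists were chosen with earlier results of these data known. The genes named are the 8, Stra8, the nearest 10 by pattern, flanking genes, up to 6 genes per list by smallest p and paralogs, and others were named after their values were seen. Alternatives included DESeq2 1.42.0 and limma 3.58.1. Promoter windows are RefSeq's, of GRCm38.p6.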

Additional observations from a re-analysis of the deposited data

How the results depend on the processing

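In all, 15 alternatives were run. Fat2, Cnpy1, Crtam, Chn2 and Mab21l1 were called lower under every alternative that kept all 4 libraries, and Pax6 under each of these but DESeq2. The 8 genes were chosen on this difference, so these calls describe the processing and are no evidence of a difference. The median log2 fold change of the 8, -0.32, ranged from -0.37 to -0.31 with 1 library left out, in fits that take the spread of the lone library from the other genotype. The log2 fold change of Cnpy1 ranged from -1.24 to -1.09 and that of Crtam from -0.97 to -0.92 there. Granule neuron genes called lower numbered 14, and 12 to 14 under the alternatives, with 1 called higher at a minimum count of 50 and without WT library 2. With DESeq2 the lower calls were 2 rather than 4 among paralogs and partners, 5 rather than 8 among dentate genes and 1 rather than 2 among midbrain-hindbrain genes, where Pax2 received no adjusted p. With counts halved, 1 flanking gene was called higher. All genes called numbered 1411 (723 higher, 688 lower), 1004 with DESeq2 and 1590 with the replicate block. Same-numbered libraries did not deviate together (r = 0.029 over 11909 genes), so the numbers were not taken as pairs, and with the block 6 members were still called lower. Of 59 list genes called, 46 kept their call under every alternative that tested them, 13 lost it under at least 1 and 0 changed direction. Barhl1 and Crtam, with 116 to 269 reads per library, had the largest SE of the 8.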
